A study of Homo sapiens with 6 samples.

Results

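Ribosome assembly and RNA polymerase I (Pol I) genes were examined in the human bladder cancer cell line T24 after knockdown of TRAIP, a ubiquitin ligase of the DNA replication machinery. The set holds 45 genes of the 33542 in the deposited table, chosen by name: 7 of Pol I transcription, 18 of small subunit assembly, 18 of large subunit assembly, and the nucleolar genes DDX21 and LYAR. Both groups were T24 cells transfected with a small interfering RNA by lipofection, 3 libraries with the control (siNC) and 3 with the RNA against TRAIP (siTRAIP). The labels name a single RNA against TRAIP, so an action of it on other transcripts cannot be told apart from the loss of TRAIP. According to its title, the study concerns MYC as a substrate of TRAIP, and the comparison shows how transcripts of the ribosome factory stood when TRAIP was lowered.

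Ribosome production begins in the nucleolus, where Pol I copies the ribosomal DNA into a long precursor RNA. The small subunit processome folds and cleaves the part that becomes the small subunit, and a separate chain of particles builds the large subunit. Many of these factors are known targets of the transcription factor MYC, which binds the sequence CACGTG (the E-box), so the set is often used as a readout of MYC activity.

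The libraries held between 39111793 gene counts in siTRAIP replicate 1 and 70439496 in siTRAIP replicate 3. siTRAIP replicate 3 stood apart from the other siTRAIP libraries, with a chi-square of 17.3 and 18 per degree of freedom against them, compared with 3.3 to 7.95 for the other pairs within a group. This chi-square is on raw counts and so depends on depth, whose part in it was not tested. Levels are given as CPM (counts scaled to library size with TMM factors) to follow a gene across libraries. To set genes beside each other, the authors' RPKM is used, which divides by gene length. TRAIP stood at 26.6, 28.3 and 28.4 CPM in siNC replicates 1 to 3 and at 12.5, 14.7 and 11.6 CPM in siTRAIP, a fold of 0.465 (edgeR adjusted p = 6.74e-10). MYC stood at 36.6, 39.3 and 34.9 CPM in siNC and at 33.9, 35.5 and 33.3 CPM in siTRAIP. The MYC groups overlapped, and the gene did not pass (log2 fold change -0.11, SE 0.05, edgeR adjusted p = 0.219), although it passed on total count scaling (-0.17, adjusted p = 0.0379). Of the urothelial and epithelial markers, the keratin genes KRT7, KRT8 and KRT18 were abundant, and KRT7 fell from a mean of 1307 to 1152 CPM (edgeR adjusted p = 0.00375). KRT19 and PPARG averaged 20.7 and 18.3 CPM in siNC, and FOXA1 and EPCAM 3.05 and 1.29 CPM. By contrast, the uroplakin genes UPK1A, UPK2 and UPK3A stood at 1.05 CPM or less in every library. So did KRT5, GATA3, the basal factor gene TP63 and the E-cadherin gene CDH1. Of 11 leukocyte, endothelial and fibroblast markers found, CD68, COL1A1 and PDGFRB passed the expression filter. Leukocyte markers summed to 34.2 to 36.1 CPM in siNC and 38.8 to 46.1 CPM in siTRAIP, nearly all of it CD68, which rose from a mean of 34.9 to 43.3 CPM (edgeR adjusted p = 9.17e-04), with PTPRC at 0.058 CPM or less. Endothelial markers summed to 0.158 CPM or less in every library, and fibroblast markers to 1.3 to 1.39 CPM in siNC and 1.08 to 5.18 CPM in siTRAIP, with the highest value in replicate 3. The part of these markers in the members' values was not tested.

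The set did not shift as a block. All 45 genes were expressed above the filter, 10 passed the edgeR test (adjusted p at or under 0.05), and these went both ways: 4 rose and 6 fell. The largest rise was in UBTF, an architectural factor of the ribosomal DNA (fold 1.18), and the largest fall was in RRN3, the factor that brings Pol I to the promoter (fold 0.814). The other rises were in the small subunit genes TSR1 and NOP14 and the large subunit gene PES1. The other falls were in GRWD1, GNL3, MRTO4 and RRS1 of the large subunit and NOB1 of the small subunit.

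The share of members that passed was 22.2%, against 12.8% of all 18685 tested genes (7.47% rose and 5.34% fell). Abundant genes passed more often, and 44 of the 45 members averaged 10 CPM or more. Of all 8664 tested genes at that level 22.3% passed, which is near the 22.7% of those 44 members. The median log2 fold change was -0.01 over the members and 0.00 over all tested genes, and 26 of the members lay within 0.1 of 0. No fold was large: the members' log2 fold changes ran from -0.30 to 0.23. Against a change of at least 1.2-fold, edgeR called 0 members, with 0 at an unadjusted p under 0.05; no other tool was run for that question.

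The split between rises and falls depended on the scale. With libraries scaled to their total count, 2 members rose and 12 fell, among them IMP4, BOP1, UTP18 and BYSL, which did not pass with TMM factors. With limma on log2(RPKM + 0.1) none rose and 9 fell, with 3 higher members at an unadjusted p under 0.05. The median over all genes was -0.06 on each of these scales. On total counts 838 of all tested genes rose and 2050 fell, and with this limma fit 461 rose and 1059 fell. With TMM factors 1396 of them rose and 997 fell. DESeq2 gave the same 10 calls as edgeR. With 1 library left out, 5 to 11 members passed: 5 without siNC replicate 2, 6 without siNC replicate 1, and 11 without siTRAIP replicate 3. In these fits 1619, 1480 and 2622 of all tested genes passed, in the same order, against 2393 with every library. The labels do not say whether replicates were grown as separate cultures, so the p-values may reflect technical spread alone. In bulk RNA, a change in every cell and a change in a share of the cells cannot be told apart.

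**Figure D1:**
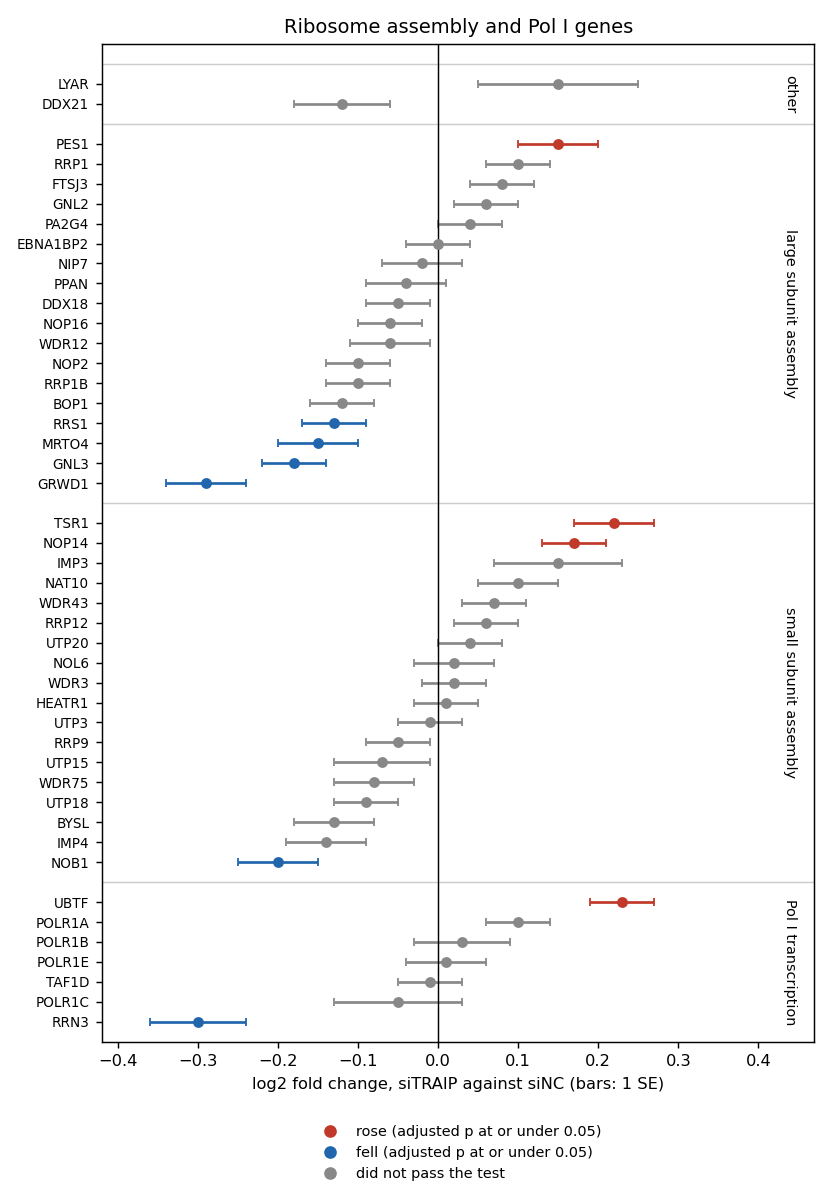
The log2 fold change of siTRAIP against siNC is plotted for each of the 45 genes, grouped by role, with bars of 1 SE; red genes rose, blue genes fell and grey genes did not pass the test. The points lie on both sides of 0 in each role, between -0.30 for RRN3 and 0.23 for UBTF.

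**Figure D2:**
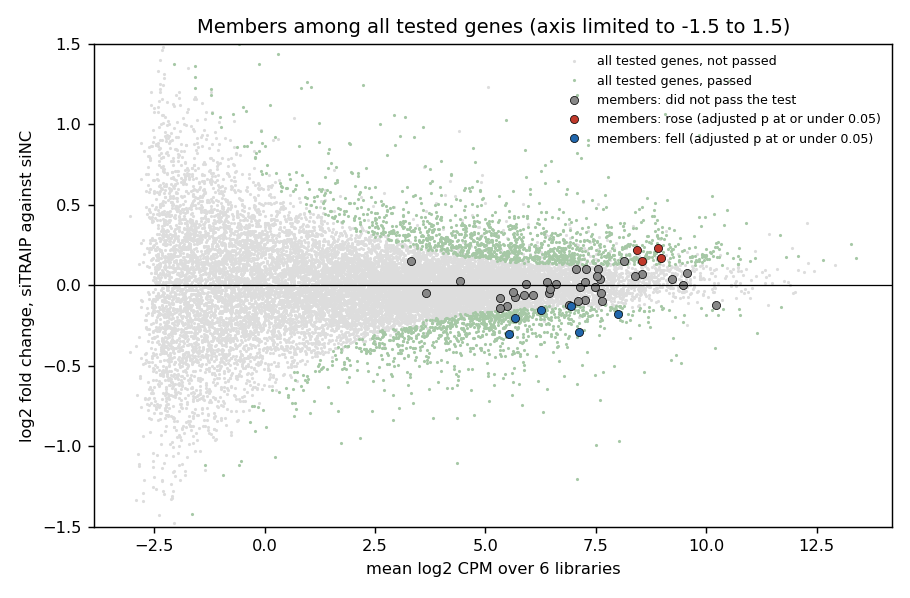
Each point is a tested gene, with its mean log2 CPM over 6 libraries on the horizontal axis and its log2 fold change on the vertical axis, which is limited to -1.5 to 1.5. The members sit among the more abundant genes and close to the line of no change, with 10 of 45 passing the test.

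The promoters of the set carry E-box letters more often than those of other genes. RefSeq promoter windows (GRCh38.p14, 250 bases before to 50 after an annotated start) were matched for 39 members. CACGTG, which reads the same on both strands, was present in 17 of them (43.6%), against 8.8% of 27305 genes with a window and 13.4% of the 6369 tested genes that had a window and averaged 10 CPM or more. These are descriptions of letters in a window, not measured binding, and they do not draw on the libraries. Many members are known MYC targets, so the higher share may come with the choice of the set, which was not tested. Windows of 30 bases around the match, with the E-box in capitals, are shown for the 4 genes that passed the test and hold it, of which GNL3 and MRTO4 fell and NOP14 and PES1 rose, and for 3 holders that did not pass.
GNL3: ggcttcagttcaCACGTGgcgccagcggag
MRTO4: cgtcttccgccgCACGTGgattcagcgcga
NOP14: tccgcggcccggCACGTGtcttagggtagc
PES1: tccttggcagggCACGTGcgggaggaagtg
GNL2: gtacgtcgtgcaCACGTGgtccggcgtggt
WDR43: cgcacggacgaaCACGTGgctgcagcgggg
UTP20: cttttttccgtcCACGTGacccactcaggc

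Positions of the E-box are given from the annotated start of transcription. Coordinates in brackets are those of the whole 30-base stretches shown above, not of the E-box alone. A gene can have more than 1 annotated start, and the 39 members had 48 windows. Over all holders the E-box began between 237 bases before a start and 42 bases after a different start, both in EBNA1BP2. In the genes shown it began 6 bases after the start in GNL3 (chr3:52686026-52686055, plus strand), 14 after it in MRTO4 (chr1:19251807-19251836, plus strand) and 15 after it in NOP14 (chr4:2963374-2963403, minus strand). It began 13 bases after the start in PES1 (chr22:30591880-30591909, minus strand), 3 after it in GNL2 (chr1:37595917-37595946, minus strand) and in WDR43 (chr2:28894658-28894687, plus strand), and 10 before it in UTP20 (chr12:101280083-101280112, plus strand). Fold changes of members with and without the letters are given as a description. The median log2 fold change was 0.00 over the 17 members with CACGTG, of which 2 rose and 2 fell (23.5% passed, against 18.9% of 1314 tested genes with the letters in their window). It was -0.01 over the 22 without it, of which 2 rose and 3 fell (22.7% passed, against 15.7% of 9278 tested genes without them). The tested genes set beside them here were of any level, while 44 of the 45 members averaged 10 CPM or more. These shares are thus not matched for abundance.

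Among the genes of Pol I transcription, UBTF rose, RRN3 fell and the 5 others did not pass. Of these 7 genes 28.6% passed, against 22.3% of tested genes that averaged 10 CPM or more. UBTF (chromosome 17, 44205033 to 44221626, minus strand) stood at 436, 442 and 443 CPM in siNC and at 537, 526 and 490 CPM in siTRAIP. All siTRAIP libraries lay above all siNC libraries, with replicate 3 the lowest of them. UBTF rose by a log2 fold change of 0.23 (edgeR adjusted p = 5.47e-04, SE 0.04), and on log2(RPKM + 0.1) with limma it was 0.17 and did not pass (adjusted p = 0.0504). RRN3 (chromosome 16, 15060022 to 15094317, minus strand) stood at 49.7, 52.9 and 50.7 CPM in siNC and at 43, 37 and 44.7 CPM in siTRAIP. Here too the groups did not overlap, and siTRAIP replicate 2 was the lowest. RRN3 had a log2 fold change of -0.30 (edgeR adjusted p = 0.00161, SE 0.06), and the call held in all 6 fits with a library left out. GENCODE v29 lists the pseudogenes RRN3P1 and RRN3P3, so reads of RRN3 may be split between near copies. RRN3P3 averaged 5.49 CPM in siNC, against 5.15 CPM in siTRAIP.

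The RPKM of UBTF was 5.21, 4.97 and 5.2 times that of RRN3 in siNC and 7.42, 8.46 and 6.51 times in siTRAIP. The pair was chosen for its opposite changes, so the ratio is a description and no p-value is given. POLR1A, the largest subunit of the polymerase, stood at 133, 128 and 126 CPM in siNC and at 143, 134 and 138 CPM in siTRAIP, higher in each siTRAIP library but without passing (log2 fold change 0.10, edgeR adjusted p = 0.123). The second-largest subunit POLR1B, the subunit POLR1C, which Pol I shares with RNA polymerase III, POLR1E and the promoter selectivity factor subunit TAF1D had log2 fold changes from -0.05 to 0.03, with overlapping groups.

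Small subunit assembly had 2 rises, 1 fall and 15 genes that did not pass, and its median log2 fold change was 0.01. Of these 18 genes 16.7% passed, against 22.3% of tested genes that averaged 10 CPM or more. TSR1, a late factor that occupies the pre-40S particle (chromosome 17, 2322503 to 2337507, minus strand), stood at 315, 333 and 317 CPM in siNC and at 362, 354 and 409 CPM in siTRAIP. Every siTRAIP library was above the siNC range, and replicate 3 was the highest. TSR1 rose by a log2 fold change of 0.22 (edgeR adjusted p = 0.00371, SE 0.05), which was 0.15 without siTRAIP replicate 3, where it passed (adjusted p = 0.00262). With limma on log2(RPKM + 0.1) it did not pass (0.16, adjusted p = 0.138).

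NOP14, a core processome protein and the most abundant member of this group at a mean of 143 RPKM, stood at 471, 476 and 489 CPM in siNC and at 549, 533 and 529 CPM in siTRAIP (chromosome 4, 2937933 to 2963385, minus strand). The groups were separate, with a difference of 0.17 on the log2 scale (edgeR adjusted p = 0.00729, SE 0.04). The NOP14 call was lost without siNC replicate 1 or 2 (adjusted p = 0.0692 and 0.0528) and on total count scaling (0.10, adjusted p = 0.0762). NOP14 also did not pass with limma on either RPKM scale. The antisense gene NOP14-AS1 overlaps 17.1% of its exonic bases and rose from 138 to 174 CPM (log2 fold change 0.33, edgeR adjusted p = 5.65e-06). The strand setting of the counting is not given in the sources used here, so its part in the NOP14 value was not tested. Genes on the opposite strand also share 20.8% of the exonic bases of TSR1 and 20.2% of those of NOB1.

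NOB1, the nuclease that makes the final cut of the small subunit RNA (chromosome 16, 69741867 to 69754940, minus strand), went the other way. It stood at 55, 56.4 and 53 CPM in siNC and at 49, 49.9 and 44.5 CPM in siTRAIP, with no overlap and replicate 3 the lowest. NOB1 had a log2 fold change of -0.20 (edgeR adjusted p = 0.00987, SE 0.05), and without siNC replicate 2 it was -0.18 and did not pass (adjusted p = 0.0685).

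The 15 other small subunit genes had log2 fold changes from -0.14 to 0.15. IMP4, a partner of MPHOSPH10 in the processome, lay just outside the threshold. It stood at 42.2, 42.5 and 42.4 CPM in siNC and at 38.8, 39.7 and 36.6 CPM in siTRAIP (log2 fold change -0.14, edgeR adjusted p = 0.0565). IMP3, of the same complex, had 0.15 (edgeR adjusted p = 0.278), at group means of 9.43 and 10.4 CPM, with 59.3% of its exonic bases shared with other genes. BYSL, a pre-40S factor, had -0.13 and the RNA acetyltransferase NAT10 had 0.10. NAT10 passed without siTRAIP replicate 3 (0.15, adjusted p = 0.00487), whose value of 182 CPM lay within the siNC range of 178 to 185 CPM, while the other siTRAIP libraries had 203 and 201 CPM. The early-acting UtpA proteins HEATR1, UTP15, WDR43 and WDR75 had log2 fold changes between -0.08 and 0.07, and none of them passed. UTP18, RRP9 and WDR75 were lower in every siTRAIP library without passing, at -0.09, -0.05 and -0.08. UTP20, UTP3, RRP12, WDR3 and NOL6, all processome or pre-ribosome proteins, lay between -0.01 and 0.06 with overlapping groups.

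Large subunit assembly, with 18 of the 45 members, held 4 of the 6 falls. Of these 18 genes 27.8% passed, against 22.3% of tested genes that averaged 10 CPM or more. With 1 library left out, 2 or 3 of them fell and 0 to 2 rose. GRWD1, a histone-binding protein of the pre-60S particle (chromosome 19, 48445773 to 48457022, plus strand), stood at 160, 150 and 151 CPM in siNC and at 135, 128 and 116 CPM in siTRAIP. The groups were separate and siTRAIP replicate 3 was the lowest (log2 fold change -0.29, SE 0.05, edgeR adjusted p = 4.25e-04). GNL3, the nucleolar GTPase nucleostemin (chromosome 3, 52681156 to 52694492, plus strand), stood at 275, 274 and 272 CPM in siNC and at 242, 239 and 245 CPM in siTRAIP. Its libraries were tight within each group, with a difference of -0.18 on the log2 scale (edgeR adjusted p = 0.00382, SE 0.04). The calls on GRWD1 and GNL3 held in all 6 fits with a library left out.

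MRTO4, a placeholder for the ribosomal stalk (chromosome 1, 19251539 to 19260128, plus strand), stood at 81.2, 80.1 and 78.6 CPM in siNC and at 73.4, 74.7 and 68.3 CPM in siTRAIP (log2 fold change -0.15, SE 0.05, edgeR adjusted p = 0.0317). RRS1, which helps load the 5S particle (chromosome 8, 66429028 to 66430733, plus strand), stood at 128, 130 and 129 CPM in siNC and at 115, 119 and 118 CPM in siTRAIP. Among the called members RRS1 was the nearest to the threshold (log2 fold change -0.13, edgeR adjusted p = 0.0349, SE 0.04). Groups were separate in both genes, yet each call was lost in 5 of the 6 fits with a library left out: MRTO4 passed only without siTRAIP replicate 2, and RRS1 only without siTRAIP replicate 3.

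PES1, BOP1 and WDR12 form the PeBoW complex, which is needed for maturation of the large subunit RNA. PES1 passed, BOP1 and WDR12 did not, and no p-value is given for a difference between their fold changes. PES1 (chromosome 22, 30576625 to 30607083, minus strand) stood at 359, 350 and 347 CPM in siNC and at 401, 407 and 363 CPM in siTRAIP. The groups were separate but siTRAIP replicate 3 lay near the siNC range (log2 fold change 0.15, SE 0.05, edgeR adjusted p = 0.0325). Of the fits with a library left out, the call was kept only in that without siTRAIP replicate 3 (0.20, adjusted p = 1.06e-04) and lost in the 5 others, with adjusted p from 0.0839 to 0.175. It was also lost on total counts and with limma on either RPKM scale. BOP1 stood at 124, 120 and 126 CPM in siNC and at 113, 116 and 113 CPM in siTRAIP, lower in each library without passing (-0.12, edgeR adjusted p = 0.0737). WDR12 overlapped between groups at -0.06 (edgeR adjusted p = 0.467). The RPKM of PES1 was 2.36, 2.37 and 2.24 times that of BOP1 in siNC and 2.88, 2.85 and 2.62 times in siTRAIP. This ratio, too, was chosen after its values were seen and is given with no p-value.

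The paralogues RRP1 and RRP1B lay on opposite sides of 0 without passing. RRP1 had a log2 fold change of 0.10 (edgeR adjusted p = 0.146) and RRP1B one of -0.10 (edgeR adjusted p = 0.141). Their RPKM ratio went from 1.44 ± 0.0225 to 1.66 ± 0.0995 (SD, n = 3 each), given with no p-value because the pair was chosen after the values were seen. RRP1 passed without siTRAIP replicate 3 (0.13, adjusted p = 0.0233).

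EBNA1BP2, the most abundant large subunit member at a mean of 201 RPKM, stood at 717, 727 and 707 CPM in siNC and at 738, 718 and 696 CPM in siTRAIP. Its groups overlapped throughout (log2 fold change 0.00, SE 0.04, edgeR adjusted p = 0.995). The RNA methyltransferase NOP2 (-0.10) and NOP16 (-0.06) were lower in every siTRAIP library, and the methyltransferase FTSJ3 (0.08) was higher in every one, without passing. The GTPase GNL2, a relative of GNL3, had 0.06, and PA2G4, the helicase DDX18, NIP7 and PPAN lay between -0.05 and 0.04 with overlapping groups. PPAN shares 59.8% of its exonic bases with same-strand genes, the read-through gene PPAN-P2RY11 among them, and GENCODE v29 names 5 pseudogenes each after PA2G4 and DDX18, so these values are uncertain.

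DDX21, an RNA helicase of Pol I transcription and RNA processing, had the highest RPKM of the set, with a mean of 238; the members' means ran from 3.37 to 238 RPKM with a median of 26.8. It stood at 1234, 1262 and 1231 CPM in siNC and at 1258, 1174 and 1008 CPM in siTRAIP. LYAR, a nucleolar zinc finger protein, stood at 266, 291 and 249 CPM in siNC and at 330, 302 and 259 CPM in siTRAIP. In both genes siTRAIP replicate 3 was the lowest siTRAIP library and the groups overlapped. By edgeR neither passed (adjusted p = 0.311 and 0.471), none of this pair had an unadjusted p under 0.05, and DESeq2 called 0 of them. The DDX21 log2 fold change was -0.12, and without siTRAIP replicate 1 it was -0.19 and passed (adjusted p = 0.0394). With no filter on low counts both passed in edgeR, DDX21 at -0.12 (adjusted p = 0.0357) and LYAR at 0.14 (adjusted p = 0.0297).

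**Figure D3:**
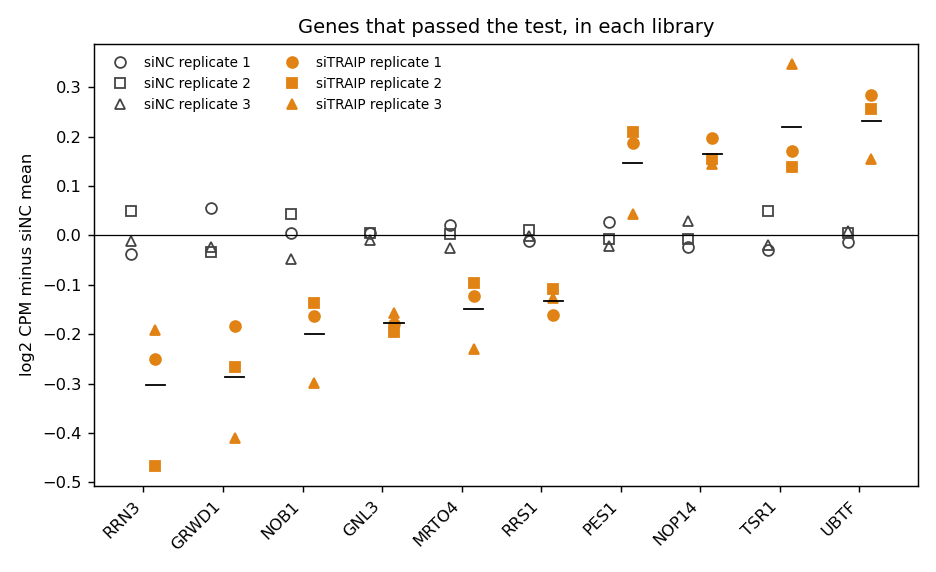
For the 10 genes that passed the test, the vertical axis gives log2 CPM minus the gene's siNC mean in each of the 6 libraries; open symbols are siNC, filled symbols are siTRAIP, symbol shape is the replicate number and the short line is the siTRAIP mean. No siTRAIP point falls inside the siNC range of its gene, and siTRAIP replicate 3 is nearest to siNC in 5 of the 10 and farthest in 4.

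Read across libraries, the set as a whole overlapped between groups. Summed over the 45 genes, it took 9495, 9664 and 9478 CPM in siNC and 9961, 9699 and 9375 CPM in siTRAIP, so siTRAIP held both the highest and the lowest library. The Pol I genes summed to 889 to 902 CPM in siNC and 939 to 998 CPM in siTRAIP, a sum in which UBTF is the largest term. The small subunit genes summed to 2814 to 2869 CPM in siNC and 2927 to 2997 CPM in siTRAIP, a sum in which NOP14 and TSR1 are among the largest terms. The large subunit genes summed to 4281 to 4342 CPM in siNC and 4173 to 4387 CPM in siTRAIP. Groups did not overlap for 20 of the 45 members (44.4%), 6 higher and 14 lower in siTRAIP, against 29.1% of all tested genes and 41.4% of those that averaged 10 CPM or more. Of the 8664 genes at that level, 1902 were higher and 1683 lower in siTRAIP without overlap. The difference in direction was not tested.

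The wider pathway was read from 95 other genes in 4 lists, of which 14 rose and 5 fell (20% passed, against 22.3% of tested genes that averaged 10 CPM or more). The balance turned with the scale: on total counts 11 rose and 16 fell, and with limma on log2(RPKM + 0.1) 4 rose and 7 fell. Over all tested genes it turned too, with 838 rises and 2050 falls on total counts and 461 and 1059 with limma. The difference in direction from the members, of which 4 rose and 6 fell, was not tested. Of 37 other small subunit genes 7 rose and 3 fell (27% passed), with a median log2 fold change of 0.02. MPHOSPH10, the scaffold that binds IMP3 and IMP4, went from 235, 247 and 219 CPM to 294, 277 and 292 CPM (log2 fold change 0.30, SE 0.05, edgeR adjusted p = 7.65e-05). NOL10 (0.28, edgeR adjusted p = 5.04e-05) and the GTPase BMS1 (0.30, edgeR adjusted p = 1.22e-04) also rose.

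PNO1, which sits beside NOB1 on the pre-40S particle and fell as NOB1 did, went from 100, 99.4 and 103 CPM to 80.2, 84 and 85.7 CPM (log2 fold change -0.27, SE 0.04, edgeR adjusted p = 1.06e-04). NOC4L, a binding partner of NOP14, fell where NOP14 rose (-0.22, edgeR adjusted p = 0.0112), and did not pass without siNC replicate 3 or siTRAIP replicate 1. ABT1 fell as well (-0.20, edgeR adjusted p = 0.0382), a call lost in 4 of the 6 fits with a library left out and with DESeq2. The ABT1 call was also lost with limma on either RPKM scale, with the replicate number as a block and with the non-robust fit.

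Of 35 other large subunit genes 7 rose and 1 fell (22.9% passed), with a median of 0.03. The 18 members of the same role had 1 rise, 4 falls (27.8% passed) and a median of -0.05. Genes of both lists averaged 19.1 CPM or more. Of all 8664 tested genes that averaged 10 CPM or more, 1147 rose and 789 fell (22.3% passed). The balance of rises and falls in both lists, too, depended on the scale. The 35 genes had 6 rises and 6 falls on total counts and 1 rise and 3 falls with limma on log2(RPKM + 0.1). On those scales the 18 members of this role had 0 rises with 7 and 5 falls. ZNF622, a late cytoplasmic factor, went from 81.7, 78.3 and 75 CPM to 97.2, 98.6 and 90.8 CPM (log2 fold change 0.29, SE 0.05, edgeR adjusted p = 1.52e-04). The GTPase GTPBP4 (0.21, edgeR adjusted p = 0.00131) and the giant ATPase MDN1 (0.22, edgeR adjusted p = 0.0021) rose as well, and neither passed with limma on either RPKM scale. The single fall was BRIX1, a pre-60S factor (-0.15, edgeR adjusted p = 0.0241), which did not pass without siNC replicate 2, siNC replicate 3 or siTRAIP replicate 2. Of 14 RNA exosome genes, whose products trim the precursor RNA, EXOSC4 fell (-0.26, edgeR adjusted p = 0.0223) and none rose (7.14% passed). The EXOSC4 call was lost in 4 of the 6 fits with a library left out. The exosome cofactor gene MPHOSPH6, named after its values were seen, had separate groups at 0.29 without passing (edgeR adjusted p = 0.179). It passed in 3 of 16 alternatives: with no filter on low counts, with the non-robust fit and in 1 of the 6 fits with a library left out. Of 9 other Pol I genes, 0 passed with edgeR and 0 with DESeq2, with 1 at an unadjusted p under 0.05 in each, and their log2 fold changes ran from -0.14 to 0.06.

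**Figure D4:**
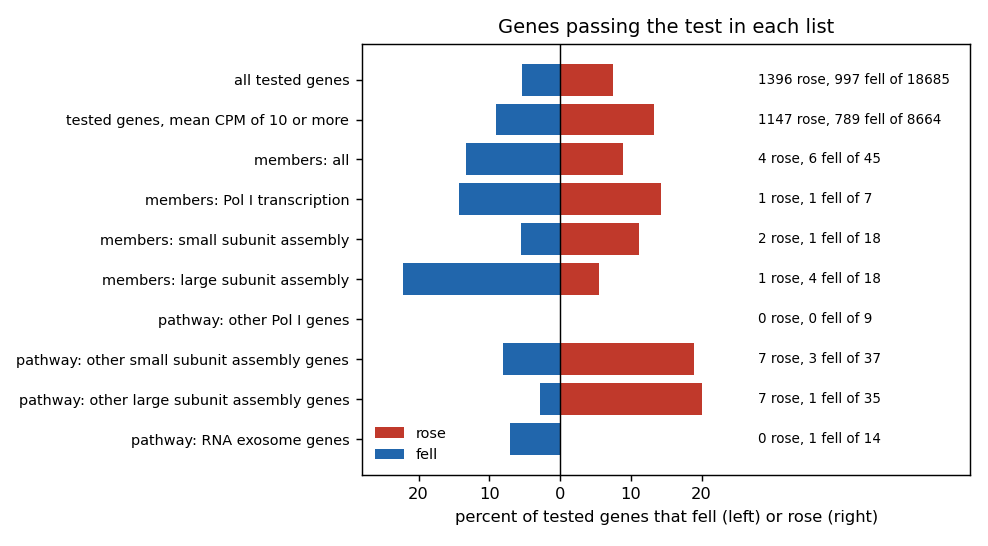
Bars give the percent of tested genes in each list that rose (right, red) or fell (left, blue), with the counts printed beside them. The members split into 4 rises and 6 falls of 45, while the other small and large subunit genes had 7 rises each, and the row of tested genes that averaged 10 CPM or more gives the background.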

How the data were processed

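The authors deposited raw counts for 6 libraries. They also deposited RPKM, which matched counts scaled by length and library sum (largest relative difference 1.3e-06). Trimmomatic 0.36, Subread 1.5.1 with featureCounts and the build GRCh38 are credited to the submitters' processing notes. Aligner, annotation release and strand setting: not given in the sources used here. Libraries came from a stranded mRNA kit, per the labels' protocols.

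Counts were tested with edgeR 4.0.16 in R 4.3.3 (filterByExpr, TMM, quasi-likelihood fit with robust=TRUE, 2-sided F-test, Benjamini-Hochberg adjustment over 18685 genes, threshold 0.05). The common biological coefficient of variation was 5.73%. The SE is the log2 fold change divided by the square root of F. The script was tested on simulated data. Alternatives were DESeq2 1.42.0, other size factors and count filters, limma 3.58.1 on log2 RPKM with pseudocounts of 0.1 and 1, a non-robust fit, a 1.2-fold null, the replicate number as a block, and each library left out. Exonic overlaps were computed from the deposited exon coordinates, and pseudogene names were taken from GENCODE v29. RefSeq promoter windows were searched for CACGTG.

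The members and lists were chosen with earlier results of these data known. Per-library values are given for TRAIP, MYC, the members that passed, and the member with the highest RPKM in each role; other members so described, the partner ratios and the background at a mean CPM of at least 10 were chosen after values were seen. In the pathway lists, up to 3 genes in each direction with the smallest adjusted p were named. Of the listed genes, 6 were found under older names.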

Additional observations from a re-analysis of the deposited data

How the results depend on the processing

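Of 720 values of the 45 members under 16 alternatives, 661 kept their call or lack of one, 41 lost it, 18 gained one, and no called member changed sign. No member passed in every alternative, since the stricter null of a 1.2-fold change gave 0 members (0 rose, 0 fell) called, 0 pathway genes (0 rose, 0 fell) and 217 of all genes (130 rose, 87 fell). On total count scaling 2 members rose and 12 fell, 11 pathway genes rose and 16 fell, and 838 of all genes rose and 2050 fell. With limma on log2(RPKM + 0.1) and log2(RPKM + 1), 0 and 0 members rose, 11 and 11 pathway genes passed, 4 and 4 of them rose, and 1520 and 1519 of all genes passed, of which 461 and 450 rose. These scales leave out the TMM factors (siNC 1.011 to 1.029, siTRAIP 0.971 to 0.987). With genes kept only at 1 CPM or more in 3 libraries, 8 pathway genes fell; the cause was not tested.

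With 1 library left out, and so fewer samples in each fit, 5 to 11 members passed (2 to 6 rose, 3 to 5 fell), 12 to 18 pathway genes passed (11 to 15 rose, 1 to 4 fell) and 1480 to 2622 of all genes passed (878 to 1471 rose, 602 to 1151 fell). The TRAIP log2 fold change stayed between -1.21 and -1.02 in these fits. Replicate numbers are not said to mark pairs, and the deviations of libraries that share a number had correlations of -0.0076, -0.018 and 0.0014. With the number as a replicate block, 8 members passed (3 rose, 5 fell), PES1 and RRS1 losing the call, and the TRAIP log2 fold change was -1.11.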
